A study of Mus musculus with 18 samples.

Results

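Lamin B1 was called over 27414 windows of 10 kb (274 Mb) in old livers that carried neither lamin B1 nor H3K9me3 in young livers and no H3K9me3 in old livers. These windows are called H3K9me3-free gained windows here. They were chosen by the lists of called regions alone. A window of chromosomes 1 to 19 had to lie in an old lamin B1 domain, from its start to its end, and in no young lamin B1 domain and no H3K9me3 region of either age. The 2 lamin B1 lists were of unequal extent. The old list covered 930 Mb of these chromosomes (median domain 340 kb) and the young list 466 Mb (median 200 kb). Many old windows therefore lie outside young domains by extent alone. Of 246285 windows, 93025 lay in an old domain, and 59833 of these lay in no young domain. Of the latter, 48144 were also in no young H3K9me3 region, and 27414 also in no old H3K9me3 region. A single window held no sequenced base, which left 27413 of 239715 windows with sequence (11.4%). The lists carry no score, so no value can be given for windows just inside or just outside the rule.

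ChIP-Seq (chromatin immunoprecipitation followed by sequencing) was performed on whole snap-frozen liver of male C57BL/6 mice. Wild-type mice aged 3 months (young) and 21 months (old) were used for lamin B1 and H3K9me3, with 2 replicates for each antibody and age. Foxa2 was profiled in mice aged 12 weeks, in Zmpste24 KO mutants and wild-type littermates, with 3 replicates per genotype. The replicates of each condition were merged before regions were called, so the lists show no spread between mice, and no test between ages or genotypes was possible. The depth behind each call is not in the lists. Whole liver holds hepatocytes together with endothelial, stellate, immune and bile duct cells, and a called region cannot be assigned to a cell type. "Free of H3K9me3" means outside the regions of the lists used here, 2781 in young and 2492 in old livers on chromosomes 1 to 19, and not that the mark was measured as absent. These lists hold fewer H3K9me3 regions than the study describes, so some of the windows may carry H3K9me3 that is not in them. H3K9me2 was not analysed here.

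Lamin B1 is a filament protein of the nuclear lamina, the meshwork under the inner nuclear membrane. Long stretches of chromatin that touch it, the lamina-associated domains, are known as gene-poor, AT-rich and mostly silent in many cell types. H3K9me3, trimethylation of lysine 9 of histone H3, marks constitutive heterochromatin and is bound by HP1 proteins. Foxa2 is a forkhead transcription factor of hepatocytes that opens compacted chromatin, and Zmpste24 is the protease that processes prelamin A.

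Foxa2 sites lay inside many of these windows. The following 4 sites are shown because they lie in the window of the start site of a listed gene and hold the forkhead core, TGTTTAC or its reverse complement GTAAACA, within 100 bases of the midpoint. The core is in capitals, with 50 bases of the reference (GRCm38.p6) on either side, read along the gene. The Serpina11 site (chr12:103989192-103989298, minus strand) lies in the gene, 712 bases after the start site, and the Prox1 site (chr1:190174114-190174220, minus strand) lies 3453 bases before the start. The Trf site (chr9:103234635-103234741, minus strand) lies 4244 bases before the start and the Lpin1 site (chr12:16618602-16618708, minus strand) 7689 bases before it. Serpina11 encodes a serpin, Prox1 a homeobox factor of hepatocytes, Trf the iron carrier transferrin and Lpin1 a phosphatidate phosphatase of triglyceride synthesis. The sites at Serpina11, Trf and Lpin1 were called in both genotypes, and the Prox1 site was called in Zmpste24 mutants only.
Serpina11 site: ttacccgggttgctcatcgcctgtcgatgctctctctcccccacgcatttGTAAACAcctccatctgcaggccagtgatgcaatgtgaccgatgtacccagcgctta
Prox1 site: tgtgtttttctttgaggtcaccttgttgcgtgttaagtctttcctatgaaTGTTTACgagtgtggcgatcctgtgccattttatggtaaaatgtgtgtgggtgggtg
Trf site: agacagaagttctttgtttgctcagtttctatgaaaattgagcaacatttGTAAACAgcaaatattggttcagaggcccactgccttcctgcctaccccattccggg
Lpin1 site: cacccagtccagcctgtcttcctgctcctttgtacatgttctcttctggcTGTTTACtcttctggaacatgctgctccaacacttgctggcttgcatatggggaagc

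At 4 other listed genes a called Foxa2 site covered some or all of the 250 bases before the start site, with its midpoint within 1 kb of the start. These are shown as the 250 bases upstream of the RefSeq start (GRCm38.p6), none of which is annotated as exon. All 250 bases lay inside a site called in the mutants only at Cyp27a1 (chr1:74713285-74713534, plus strand), C3 (chr17:57228137-57228386, minus strand) and Insig2 (chr1:121332590-121332839, minus strand), so these are in lower case. At F7 (chr8:13025784-13026033, plus strand) the capitals mark the 120 bases inside a wild-type site. Cyp27a1 encodes sterol 27-hydroxylase of bile acid synthesis, C3 the central complement protein, Insig2 a sterol sensor that holds back SREBP processing, and F7 coagulation factor VII. None of the 4 holds the forkhead core.
Cyp27a1 promoter: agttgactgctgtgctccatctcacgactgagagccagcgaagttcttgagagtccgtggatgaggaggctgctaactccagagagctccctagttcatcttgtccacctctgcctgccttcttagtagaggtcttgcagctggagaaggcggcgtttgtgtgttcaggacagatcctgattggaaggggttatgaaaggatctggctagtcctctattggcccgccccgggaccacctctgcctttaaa
C3 promoter: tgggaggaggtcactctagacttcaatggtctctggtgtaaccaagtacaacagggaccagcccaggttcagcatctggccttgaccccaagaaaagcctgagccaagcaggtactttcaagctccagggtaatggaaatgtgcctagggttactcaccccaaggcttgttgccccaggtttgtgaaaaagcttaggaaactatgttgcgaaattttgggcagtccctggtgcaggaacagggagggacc
Insig2 promoter: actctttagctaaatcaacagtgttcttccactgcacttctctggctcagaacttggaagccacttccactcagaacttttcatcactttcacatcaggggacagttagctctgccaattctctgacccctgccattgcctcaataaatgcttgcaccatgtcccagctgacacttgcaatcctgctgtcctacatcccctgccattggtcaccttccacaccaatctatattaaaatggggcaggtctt
F7 promoter: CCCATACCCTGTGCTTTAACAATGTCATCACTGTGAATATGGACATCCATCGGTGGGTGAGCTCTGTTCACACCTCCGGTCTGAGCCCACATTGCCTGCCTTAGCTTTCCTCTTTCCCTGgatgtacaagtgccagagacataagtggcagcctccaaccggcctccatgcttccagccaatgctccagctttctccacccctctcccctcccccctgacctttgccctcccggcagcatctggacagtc

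Among 19174 RefSeq promoters of protein-coding symbols (15687 symbols matched), 2.60% held the forkhead core in these 250 bases. Of the 3878 with the start in an H3K9me3-free gained window, 95 (2.45%) did, against 404 of 15296 elsewhere (2.64%). Around Foxa2 sites the core was more frequent. Of the 1083 wild-type sites in the gained windows, 142 (13.1%) held it within 100 bases of the midpoint, and of 1308 mutant sites 162 (12.4%) did. Elsewhere the shares were 10.1% of 3829 wild-type and 7.56% of 6743 mutant sites. Among sites called in both genotypes the shares inside and outside the gained windows were close. They were 21.0% and 21.1% for the wild-type list and 23.0% and 22.2% for the mutant list. Among sites without overlap in the other genotype the core stayed more frequent inside the gained windows. The shares inside and outside were 8.75% and 6.4% for the wild-type list and 7.78% and 5.13% for the mutant list. Segments of the same 200 bases over the whole of the gained windows held the core in 2.69%, and those of all other windows in 3.02%.

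H3K9me3-free gained windows were present on each of the 19 chromosomes, from 6.92% of the windows of chromosome 10 and 6.97% of chromosome 16 to 17.1% of chromosome 9 and 17.8% of chromosome 19, with a median of 11.2%. Chromosome 2 held the most, with 2440, and chromosome 16 the fewest, with 662. Joined to runs, the windows formed 1756 stretches with a median length of 70 kb (quartiles 40 and 200 kb) and a mean of 156 kb. Only 156 runs were 1 window long. The 446 runs of at least 200 kb held 68.7% of the windows, and 9 runs reached 1 Mb. At least 1 protein-coding start site lay in 1185 runs, with a median of 120 kb, and the 571 runs without a start (32.5%) had a median of 40 kb.

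**Figure D1:**
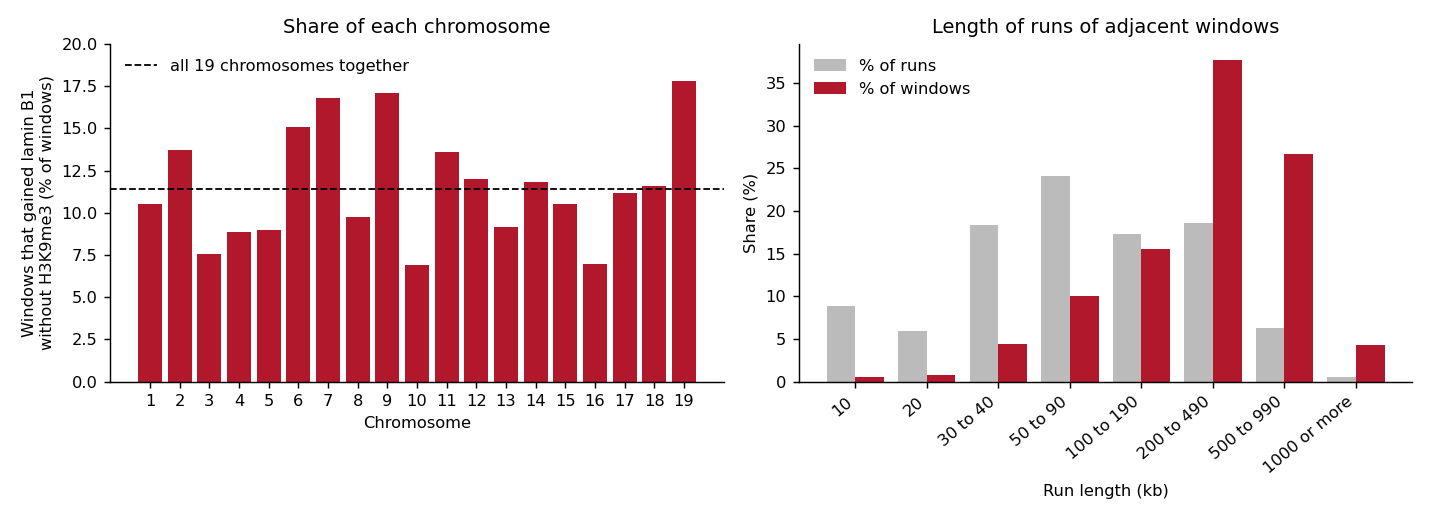
Left, percent of the 10 kb windows of each chromosome that gained lamin B1 without H3K9me3, with the value for all 19 chromosomes (11.4%) as a dashed line. Right, percent of the 1756 runs (grey) and of the windows (red) by run length in kb. Chromosomes 9 and 19 stand highest, and runs of 200 to 490 kb hold 37.7% of the windows although they are 18.6% of the runs.

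The gained windows belonged to domains of both kinds in the old list. Of 1517 old domains on these chromosomes, 1059 held at least 1 such window and 191 consisted of nothing else, with a median length of 190 kb. Domains that overlapped a young domain held 14713 of the windows (53.7%, 95% Wilson interval 53.1 to 54.3%), and domains without any young overlap held 12701. The interval covers counting error only, and windows of 1 domain are not independent. In measures the rule did not use, both portions were close in GC content and Foxa2 density, and start sites were denser in the extended domains. GC content was 45.9% in extended and 45% in old-only domains, with 16.0 and 13.1 protein-coding start sites per Mb, 3.91 and 4.0 wild-type Foxa2 sites per Mb, and 4.70 and 4.86 mutant sites per Mb.

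Most runs ended at H3K9me3 on at least 1 side. An H3K9me3 region inside the old domain bounded 1157 runs (65.9%), the edge of the old domain bounded 976 (55.6%) and a young lamin B1 domain bounded 670 (38.2%). An end beside a young domain was counted as that kind only. The 188 runs that reached both edges of their old domain, with no young domain beside them, held 19.3% of the windows. The 160 runs that filled a gap between young domains held 5.04%. The typical window lay far from what had been called in young livers. The median distance to the nearest young lamin B1 domain was 420 kb (quartiles 150 and 930 kb), and 81.8% of the windows were at least 100 kb away. To the nearest H3K9me3 region of either age it was 160 kb, and 5.69% of the windows touched one. Windows that touched a young lamin B1 domain held 20.9 start sites per Mb, and those at least 100 kb away held 13.9 at the same GC content (45.5%).

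The longest runs carried genes of many kinds. The longest, chr5:34760001-36630000, spanned 1870 kb and was a whole old domain with no young overlap. It held 21 protein-coding start sites, from Htt, which encodes huntingtin, to Tbc1d14, and included the liver genes Hgfac, a serine protease that activates hepatocyte growth factor, and Acox3, a peroxisomal acyl-CoA oxidase. The second, chr6:90300001-92070000, spanned 1770 kb with 22 start sites, 7 wild-type and 15 mutant Foxa2 sites. It held Klf15, a transcription factor of the fasting response, Uroc1, the urocanase of histidine breakdown, Aldh1l1, a folate enzyme, Nup210, a nuclear pore protein, and Xpc, which recognizes damaged DNA. A mutant Foxa2 site lay 1248 bp from the start of Klf15. Sites of both genotypes lay in the start window of Uroc1, 668 bp (wild type) and 583 bp (mutants) from its start.

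The other 8 of the 10 longest runs ranged from 970 to 1390 kb, and the number of start sites in them from 4 to 33. The run chr1:92580001-93830000 was the richest, with 33, and included Agxt, which detoxifies glyoxylate in liver peroxisomes, and Hdlbp, an RNA-binding protein. The run chr14:24720001-25870000 had 4 start sites in 1150 kb, of Zmiz1, Ppif, Zcchc24 and Anxa11. In chr6:98920001-100230000 the forkhead gene Foxp1 lay wholly within the run, and Foxa2 sites of both genotypes fell in the window of its start, 239 bp (wild type) and 288 bp (mutants) away. Bub1, a kinase of the spindle checkpoint, started in chr2:127830001-128850000, where Bcl2l11 and Mertk also lay. Epas1, the hypoxia factor HIF-2 alpha, lay wholly within chr17:86100001-87070000. The other 3 runs were chr7:137640001-139030000, chr1:131520001-132610000 and chr6:50190001-51240000, with 5, 24 and 5 start sites. The tenth place was shared with a run of equal length on chromosome 7, in which Ccnd1 started.

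The gained windows were GC-rich, gene-rich and poor in repeats beside the genome. Their GC content was 45.5% against 41.9% over all windows with sequence, soft-masked repeats made up 25.8% against 33.5%, and gene bodies covered 58.1% against 41.3%. They held 4023 of 20807 protein-coding start sites (19.3%), which is 14.7 per Mb against 8.68 per Mb over all windows. Windows that gained lamin B1 together with H3K9me3 in old livers had a higher GC content (46.8%) and fewer start sites (9.29 per Mb). Windows with lamin B1 at both ages and no H3K9me3 had the same GC content (45.5%) and more start sites (23.8 per Mb). Windows outside all 4 lists had 39.5% GC and 5.38 start sites per Mb.

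These orders held over most chromosomes. The density of start sites in the gained windows, 9.25 to 20.1 per Mb with a median of 14.1, was above that of the windows that also gained H3K9me3 on 19 of 19 chromosomes, above that of the windows outside all lists on 19, and below that of the windows with lamin B1 at both ages on 19. GC content was below that of the windows that also gained H3K9me3 on 18 of 19 and above that of the windows outside all lists on 19. Chromosomes are given as a description of spread and are not replicates.

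**Figure D2:**
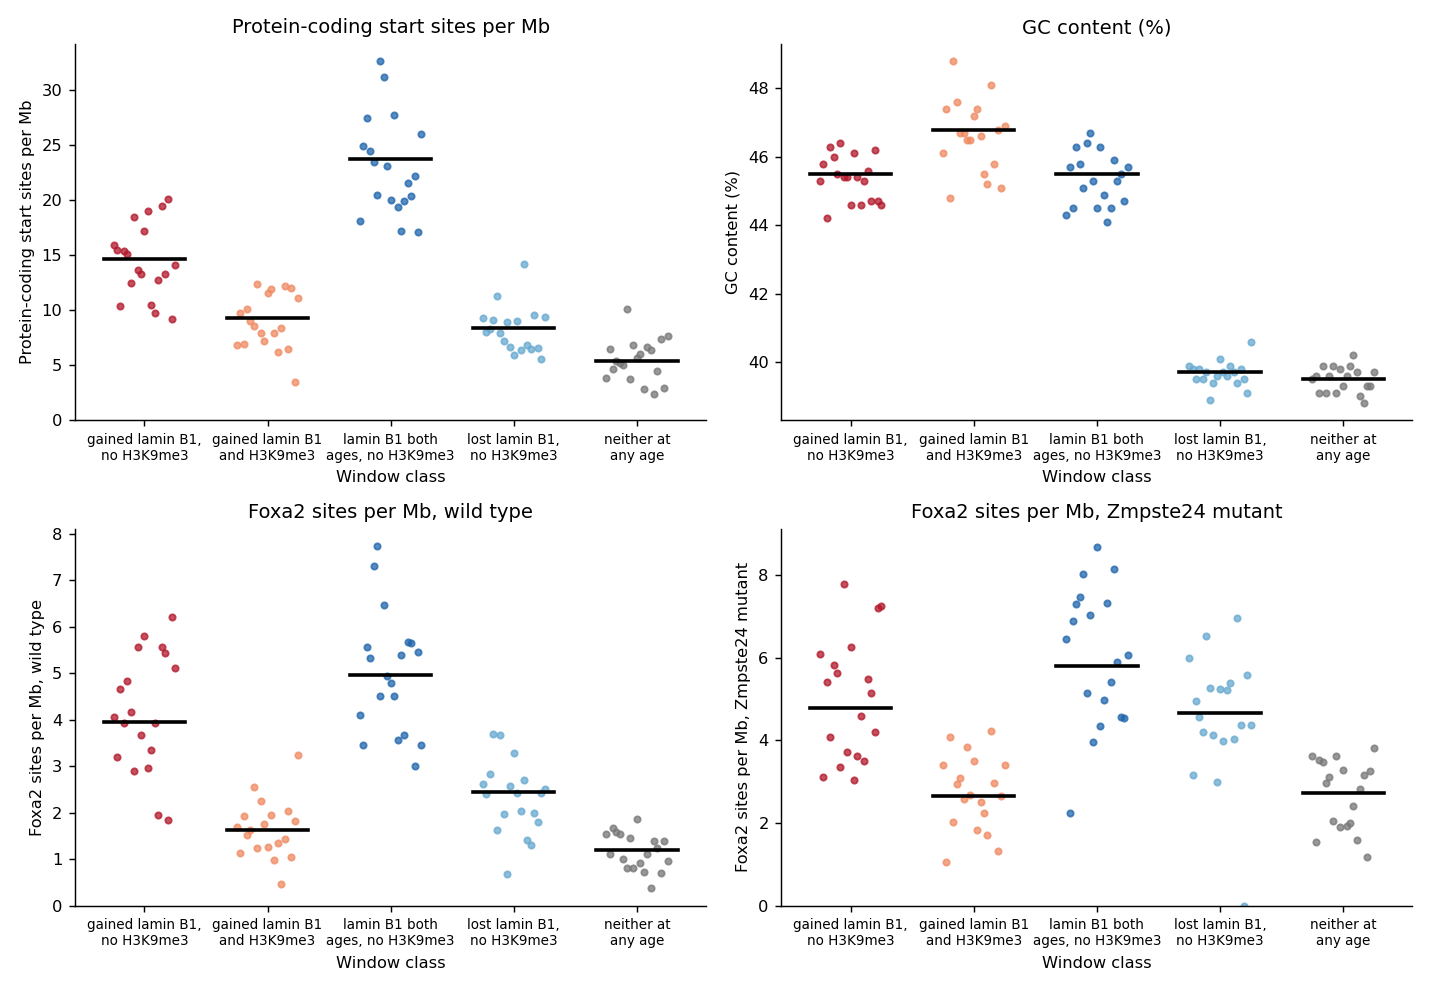
Protein-coding start sites per Mb, GC content in percent, and Foxa2 sites per Mb in wild-type and Zmpste24 mutant livers for 5 classes of 10 kb windows. Each point is 1 of 19 chromosomes and each black line is the value over all windows of the class. The gained windows without H3K9me3 (14.7 start sites per Mb) lie between the windows with lamin B1 at both ages (23.8) and those that also gained H3K9me3 (9.29), and the GC axis does not start at 0.

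The share of windows that belonged to the gained set rose with GC content up to 50%. It was 0.238% of windows under 38% GC, 4.30% from 38 to 42%, 19.7% from 42 to 46%, 26.1% from 46 to 50% and 23.0% at 50% or more. At matched GC content from 38 to 46% the gained windows and the windows outside all lists were close in start sites. Above 46% the gained windows held fewer. Under 38% GC they also held fewer, 0.909 against 3.21 per Mb, but over only 110 gained windows. From 38 to 42% GC the values were 4.52 and 4.23 per Mb. From 42 to 46% GC both held 10.8 per Mb, from 46 to 50% the values were 19.5 and 23.6, and at 50% or more they were 32.3 and 41.2, the last over 167 windows outside the lists. The presence of a start site made little difference to membership within a GC range. From 46 to 50% GC, 27.6% of windows with a start and 25.8% of those without belonged to the gained set.

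At matched GC content of 42% or more, Foxa2 density in the gained windows stayed above that of windows outside all lists. Wild-type sites reached 3.52, 4.47 and 6.82 per Mb in the gained windows from 42 to 46%, from 46 to 50% and at 50% or more, against 2.21, 2.19 and 3.27 in windows outside all lists. Mutant sites reached 4.79, 5.14 and 5.46 per Mb, against 3.35, 2.01 and 3.27. Windows with lamin B1 at both ages and no H3K9me3 were higher than the gained windows in each of these ranges. They held 4.04, 6.42 and 7.48 wild-type and 5.8, 6.59 and 6.61 mutant sites per Mb. From 42 to 46% GC, windows that lost lamin B1 and had no H3K9me3 also held more than the gained windows, 4.25 wild-type and 5.9 mutant sites per Mb. From 38 to 42% they held 2.6 and 4.7, against 2.17 and 3.47 in the gained windows. The forkhead core itself became rarer with GC content in the gained windows, from 0.170 per kb at 38 to 42% to 0.0934 per kb at 50% or more.

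**Figure D3:**
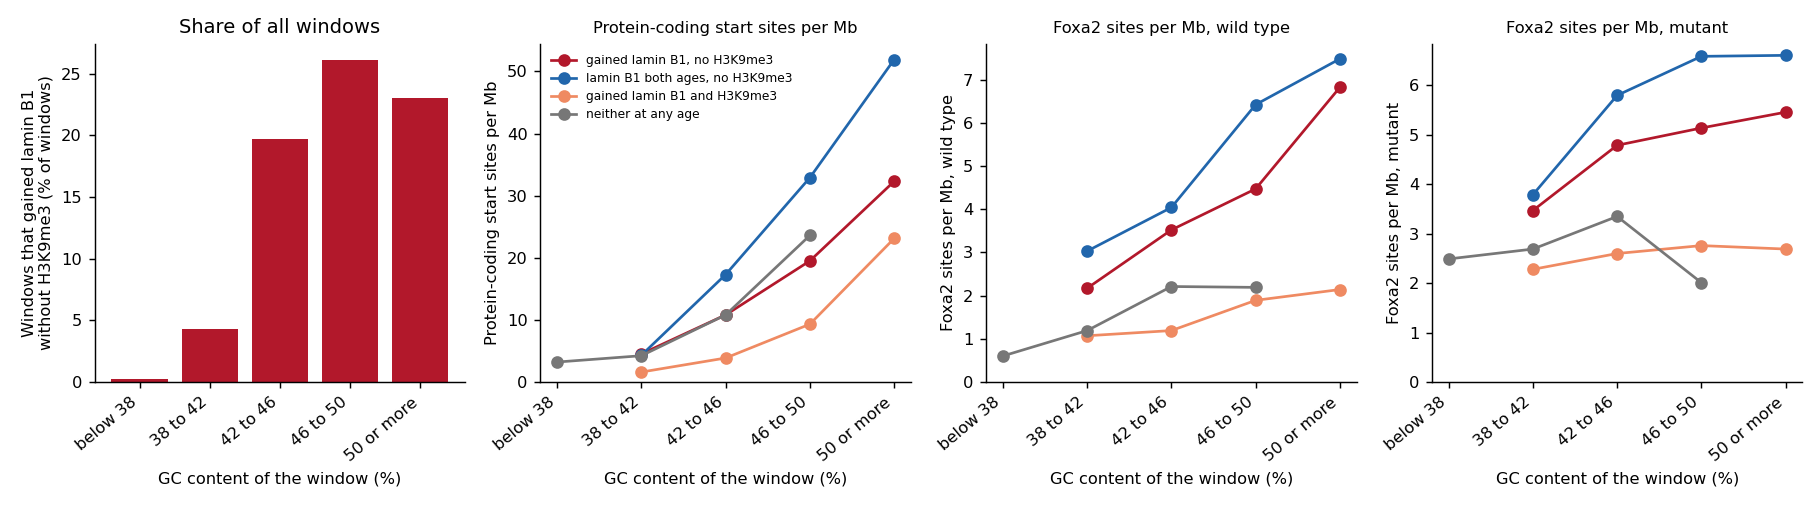
From left to right, the percent of windows that gained lamin B1 without H3K9me3, protein-coding start sites per Mb, and Foxa2 sites per Mb in wild-type and mutant livers, by GC content of the window. Points are drawn for classes of at least 500 windows in a GC range. Start sites in the gained windows (red) are at or under those of windows outside all lists (grey) from 42% GC, while Foxa2 sites of both genotypes are above them.

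Foxa2 sites were then placed by their midpoint. In wild-type livers 1083 of 4912 sites on these chromosomes (22.0%, Wilson interval 20.9 to 23.2%) lay in the gained windows, which make up 11.4% of the windows. In Zmpste24 mutants 1308 of 8051 sites (16.2%, interval 15.5 to 17.1%) did. The density was 3.95 wild-type sites per Mb (exact Poisson interval 3.72 to 4.19) against 2.05 over all windows, and 4.77 mutant sites per Mb (4.52 to 5.04) against 3.36. On 19 of 19 chromosomes both densities were above those of the windows that also gained H3K9me3 (1.62 and 2.66 per Mb) and of those outside all lists (1.19 and 2.72). Windows with lamin B1 at both ages held more, 4.96 and 5.80 per Mb. The wild-type density was higher there on 16 of 19 chromosomes and the mutant density on 15. Windows that lost lamin B1 and had no H3K9me3 held 2.44 and 4.66 per Mb. The gained windows were above these on 19 chromosomes for wild-type sites, but on only 10 of 19 for mutant sites.

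The excess of called sites in mutants was small in the gained windows. There were 1.21 mutant sites per wild-type site, against 1.64 over all windows and 2.29 outside all lists. The ratio was 1.65 in windows that also gained H3K9me3 and 1.17 in windows with lamin B1 at both ages. These ratios were not matched for GC content. From 38 to 42% GC the gained windows held 3.47 mutant and 2.17 wild-type sites per Mb, against 2.69 and 1.19 outside all lists. From 42 to 46% the values were 4.79 and 3.52 against 3.35 and 2.21. From 46 to 50% they were 5.14 and 4.47 against 2.01 and 2.19. Here the gained windows, unlike those outside all lists, had more mutant than wild-type sites. So did windows that also gained H3K9me3 (2.76 and 1.89) and windows with lamin B1 at both ages (6.59 and 6.42). At 50% or more the gained windows held 5.46 and 6.82, against 3.27 and 3.27 outside all lists. The share in the gained windows was larger for sites called in both genotypes. Of 1339 wild-type sites that overlapped a mutant site, 386 (28.8%) lay there, against 697 of 3573 without overlap (19.5%). The corresponding mutant counts were 395 of 1353 (29.2%) and 913 of 6698 (13.6%). Sites in the gained windows also lay nearer to genes. The median distance to a protein-coding start was 17.8 kb for wild-type and 22.1 kb for mutant sites, against 28.6 and 53.8 kb for sites elsewhere. By run, 574 of the 1756 runs held a wild-type site, 631 a mutant site, 403 both and 954 neither.

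Of the 4023 protein-coding genes with the start site in a gained window, 3215 (79.9%) lay wholly within such windows, which is 15.5% of all protein-coding genes. Their median length was 20.1 kb, against 17.0 kb for the other genes. The start window of 312 held a wild-type Foxa2 site (7.76%) and that of 290 a mutant site (7.21%). Genes were then read by 29 lists of known function, chosen with earlier results of these data known. Counts are given beside the 19.3% of all protein-coding genes, without a test, since neighbouring genes share runs.

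Metabolic and secretory genes of hepatocytes stood high among these lists. The 7 lists pooled here were secreted proteins, fatty acid oxidation, fatty acid and cholesterol synthesis, lipid droplets, bile acids, glucose and nitrogen metabolism, and phase II and glutathione. Hepatocyte transcription factors (4 of 24), nuclear receptors (8 of 36) and cytochrome P450 genes (13 of 93) were kept apart. Nuclear receptors were not lower than fatty acid oxidation, which was pooled and was also at 8 of 36. The lists to pool were chosen with earlier results known, and a pool with the lists left out was not computed. The pooled shares below, also those within GC ranges, therefore hold for this choice of lists only. Of 259 genes in the 7 lists, 100 (38.6%) started in a gained window, in 76 runs, and 90 lay wholly inside. Another 77 (29.7%) started in windows with lamin B1 at both ages and no H3K9me3, against 22.4% of all genes. The higher share was thus not particular to the gained windows. The start window of 17 of the 100 held a wild-type and that of 19 a mutant Foxa2 site. The share depended on GC content for all genes, but the listed genes were higher within GC ranges too, though by little from 42 to 46% GC (15 of 63, 23.8%, against 21.5%). None of the 7 listed genes under 38% GC was a member. From 46 to 50% GC, 50 of 109 listed genes (45.9%) were members against 27.5% of all genes, and at 50% or more 27 of 52 (51.9%) against 21.4%. A narrower set was genes whose start lay outside the young lamin B1 list and H3K9me3 of both ages, in or outside an old domain. In this set 45.5% of all genes (4023 of 8846) were in the gained windows, and 70.9% of the hepatocyte genes. This was not particular to hepatocyte genes. H3K9 methylation genes were at 90.0%, ribosomal protein genes at 84.6% and respiratory chain genes at 68.0%. Olfactory receptor genes were far lower, at 4.6%, and vomeronasal receptor genes were at 0%.

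**Figure D4:**
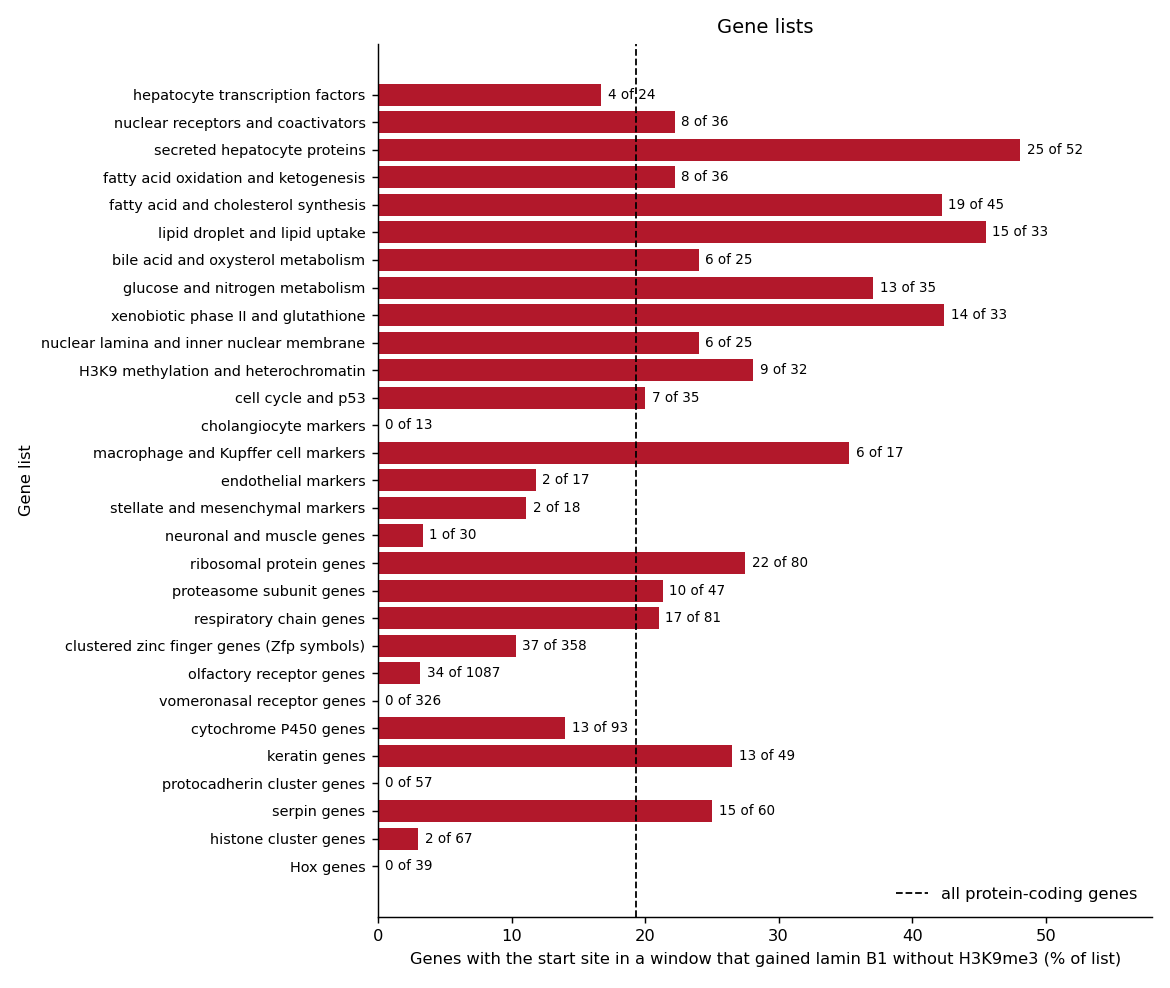
Percent of the genes of each of 29 lists with the start site in a window that gained lamin B1 without H3K9me3, with the count beside each bar. The dashed line is the share of all protein-coding genes (19.3%). Secreted hepatocyte proteins (25 of 52), lipid droplet genes (15 of 33), phase II and glutathione genes (14 of 33) and fatty acid and cholesterol synthesis genes (19 of 45) reach above 40%, and vomeronasal receptors (0 of 326) and Hox genes (0 of 39) are at 0.

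Secreted hepatocyte proteins were the list with the highest share, 25 of 52 genes (48.1%) in 15 runs, and 24 of the 25 lay wholly in gained windows. The apolipoprotein genes Apoa1, Apoc3, Apoa4 and Apoa5, which encode proteins of high density and triglyceride-rich lipoproteins, shared 1 run, chr9:45890001-46310000, of 420 kb. The nearest young lamin B1 domain was 990 kb from Apoa1 and 1030 kb from Apoa5. Apoe, Apoc1, Apoc4 and Apoc2 shared a run of only 50 kb, chr7:19670001-19720000, with young lamin B1 on both sides in an old domain of 1190 kb. The inter-alpha-trypsin inhibitor genes Itih1, Itih3 and Itih4, whose products stabilize hyaluronan, shared a run of 180 kb, chr14:30820001-31000000. Ambp, the source of the light chain of the same inhibitors, lay in an old-only domain that was gained over its full 670 kb, and Itih2 in a run of 330 kb.

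Other members of the list were single genes or pairs. F7 lay wholly in a run of 390 kb, in which its neighbour F10, another clotting factor, started without lying wholly inside. Plg, plasminogen, lay in a run of 80 kb with Foxa2 midpoints of both genotypes within 50 bp of its start (43 bp in wild type, 13 bp in mutants). Ahsg and Fetub, the fetuins, shared a run of 130 kb, with Foxa2 sites 528 bp (wild type) and 567 bp (mutants) from the start of Ahsg. Hp, haptoglobin, and Hamp, hepcidin, lay in runs of 50 and 60 kb. Of the other 27 genes, 13 were in windows with lamin B1 at both ages, among them Apoa2, Ttr, F2, F12, Serpinc1 and Serpind1, and 12 outside all lists, among them Alb, Apob, F5, Kng1 and the fibrinogen genes Fga, Fgb and Fgg, with 2 in other windows. When windows within 30 kb of an excluded region were left out, the count fell to 15 of 52 (28.8%), beside 14.1% of all genes.

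**Figure D5:**
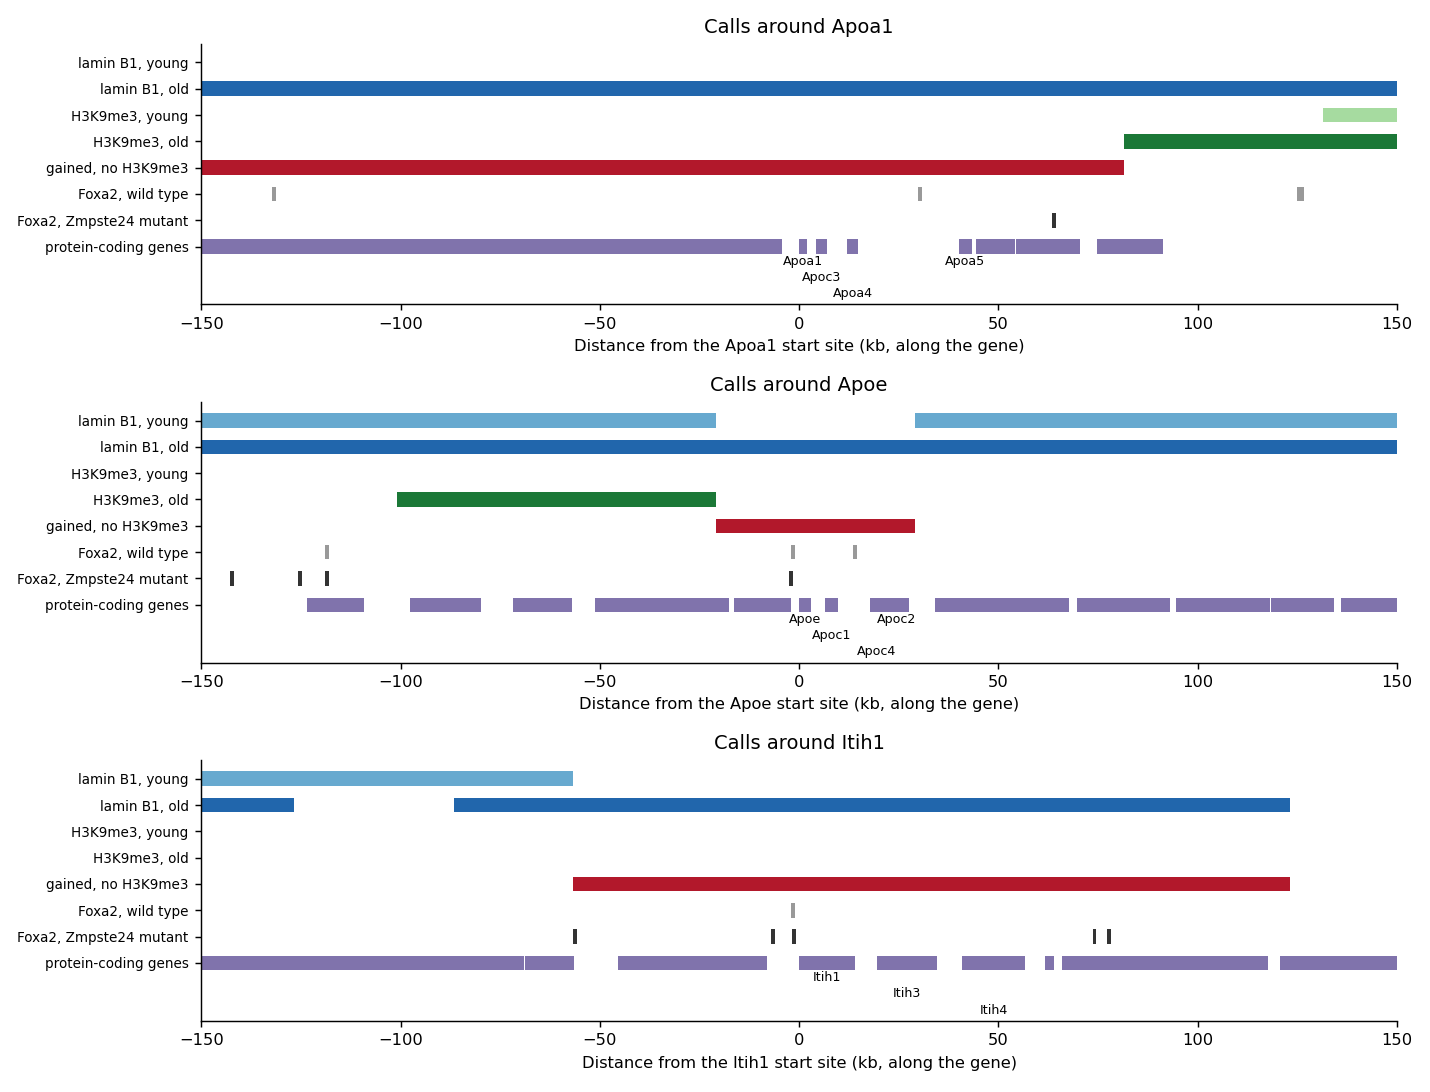
Called regions around the start sites of Apoa1, Apoe and Itih1, with the distance from the start in kb along the gene. Bars are, from top to bottom, lamin B1 and H3K9me3 at each age, the gained windows, Foxa2 sites of each genotype (drawn at least 1 kb wide) and protein-coding genes, with listed genes named. All the apolipoprotein and Itih genes named lie inside the red bar, which at Apoe is 50 kb wide between young lamin B1 domains.

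Lipid genes formed 3 of the lists. Of 45 genes of fatty acid and cholesterol synthesis, 19 (42.2%) were members, and only 1, Cyp51, lay outside all lists. They included Srebf1 and its regulators Insig1 and Insig2, the desaturase genes Scd1, Fads1 and Fads2, the elongase genes Elovl1, Elovl2 and Elovl5, and the acyltransferase genes Dgat1, Dgat2, Gpam and Agpat2. Cholesterol genes among them were Fdft1, in a run of 430 kb, and Sqle, in a run of 700 kb. A mutant Foxa2 site lay 153 bp from the start of Insig1 and 523 bp from that of Insig2, with the nearest wild-type site 1249694 bp and 3054 bp away. Fasn, the fatty acid synthase gene, was in a window that also gained H3K9me3, and Acaca, Acly and Srebf2 had lamin B1 at both ages.

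Lipid droplet genes showed 15 of 33 members (45.5%). Plin4 and Plin5, with Plin3, coat proteins of lipid droplets, shared a run of 280 kb, and Cideb and Fitm1, which act in droplet and lipoprotein formation, shared 1 of 540 kb. Pnpla2, the main triglyceride lipase, its inhibitor G0s2, Lipe, Mgll and Pnpla3 were members, as were the neighbours Hsd17b13 and Hsd17b11, Cidec, Fabp1 and Fabp2. Fatty acid oxidation was nearer the background, with 8 of 36 (22.2%), and with 3 of 36 (8.33%, beside 14.1% of all genes) at 30 kb or more from an excluded region. Its members included Acsl1 and Acsl5, which activate long-chain fatty acids, and Acadm, with a wild-type Foxa2 site 1756 bp from its start. Another 18 genes of that list had lamin B1 at both ages.

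The other metabolic lists varied. Among 35 genes of glucose and nitrogen metabolism 13 (37.1%) were members, including Pck1, the cytosolic enzyme of gluconeogenesis, Gys2, the liver glycogen synthase, Irs2, an adaptor of the insulin receptor, and Arg1, the arginase of the urea cycle. Arg1 had a wild-type Foxa2 site 67 bp from its start and Pck1 a mutant site at 75 bp and a wild-type site at 1510 bp. Of 33 genes of phase II and glutathione metabolism 14 (42.4%) were members, with Gstm1, Gstm2 and Gstm3 in 1 run of 590 kb, Nfe2l2, the oxidative stress factor, and both subunits of glutamate-cysteine ligase, Gclc and Gclm. Bile acid genes were at 6 of 25 (24.0%), with Cyp8b1, Slc10a1 (the bile acid importer NTCP) and Abcc2 (the exporter MRP2). Cyp7a1 lay outside all lists. Over the cytochrome P450 family the share was 13 of 93, and 41 lay outside all lists, most Cyp3a and Cyp2c genes among them. Serpin genes reached 15 of 60, of which 10 shared a run of 310 kb from Serpina11 to Serpina3i.

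Regulators were closer to the background. Of 24 hepatocyte transcription factors 4 (16.7%) were members, Prox1, Klf15, Bhlhe40 and Gata4, while 12, among them Cebpa and Foxa3, had lamin B1 at both ages. Of 36 nuclear receptors and cofactors 8 (22.2%) were members, including Nr1h4, the bile acid receptor FXR, with a mutant Foxa2 site 161 bp from its start, Rxra, and Rora in a run of 750 kb. Genes of the lamina and inner nuclear membrane were at 6 of 25 (24.0%), Lmnb1, Lbr, Sun1, Tor1aip1, Nemp1 and Nup210, and genes of H3K9 methylation and heterochromatin at 9 of 32 (28.1%), including Suv39h2, Setdb1, Cbx3 and Kdm1a. Cell cycle and p53 genes were at 7 of 35, with Myc, Ccnd1 and Mdm2. At 30 kb or more from an excluded region, beside 14.1% of all genes, the counts were 3 of 36 nuclear receptors (8.33%), 3 of 25 lamina genes, 5 of 32 H3K9 methylation genes (15.6%) and 4 of 35 cell cycle genes (11.4%), and the transcription factors were unchanged at 4 of 24.

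Markers of other liver cells gave 10 of 65 (15.4%) together. Macrophage and Kupffer cell markers were at 6 of 17, with Clec4f, Timd4, Adgre1 and Csf1r, endothelial markers at 2 of 17, stellate markers at 2 of 18 (Pdgfrb and Tagln) and cholangiocyte markers at 0 of 13. These counts give gene positions and not expression. Ribosomal protein genes were at 22 of 80 (27.5%), respiratory chain genes at 17 of 81 (21.0%) and proteasome genes at 10 of 47 (21.3%). Keratin genes were at 13 of 49 (26.5%), with 28 more in windows that also gained H3K9me3. Several large gene families were low. Olfactory receptor genes were at 34 of 1087 (3.13%), histone cluster genes at 2 of 67, neuronal and muscle genes at 1 of 30, and vomeronasal receptor, clustered protocadherin and Hox genes at 0 of 326, 57 and 39. Zfp genes, many of which lie in H3K9me3 clusters, were at 37 of 358 (10.3%).

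Of 306 listed genes that started in a gained window, the start window held a wild-type Foxa2 midpoint for 33 (10.8%) and a mutant one for 37 (12.1%). Over all 4023 genes that started in a gained window the shares were 7.76% and 7.21%. In all, 55 listed genes had a midpoint of either genotype. Of these, 18 had a wild-type site only, 22 a mutant site only and 15 sites of both. Besides those named above, a wild-type site lay 117 bp from the start of Ncoa2, a coactivator of nuclear receptors, and 735 bp from that of Itih2. A mutant site lay 414 bp from the annotated start of Cyp27a1 and 473 bp from that of C3. The intervals are called from merged reads, and a site listed in 1 genotype only was not shown to differ between the genotypes.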

How the data were processed

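The authors deposited lists of called regions, 6 of which were used here. The unit is genome position alone: the deposited lists hold start and end of intervals called after the replicates had been merged, with no signal, score or read count. Per the submitters' processing notes, BWA, SICER and the build mm10 were used. The study's methods name Epic for lamin B1, with windows of 10 kb and a gap of 3 windows, against an input mixed from young and old chromatin, and PeakSeq for Foxa2, with mutant reads downsampled. The caller for H3K9me3 is not given in the sources used here.

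Chromosomes 1 to 19 were divided into windows of 10 kb, and each window was assigned to the intervals that held it. Chromosome names matched GRCm38.p6, and no region ended beyond the length of its chromosome there. GC content, soft-masked repeats and motifs were read from this assembly. Genes came from GENCODE vM21, and promoters and miRNAs from RefSeq. Foxa2 sites were placed by midpoint and genes by start site. The code (Python 3.11.15, numpy 2.4.6, pandas 2.3.3, scipy 1.17.1, matplotlib 3.10.9) was tested on simulated data. Wilson intervals for shares and exact Poisson intervals for densities are at 95% and cover counting error only. Merged calls allow no test between ages or genotypes, so shares and densities are set beside those of all windows or genes and spread over 19 chromosomes.

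The windows, gene lists and comparisons were chosen with earlier results of these data known. Named genes are those that start in the 10 longest runs, list members in the gained windows, and list members whose start window holds a Foxa2 site. Listed genes outside the gained windows and the miRNAs were chosen after their values were seen. Of 55 list members with a Foxa2 site in the start window, 19 have no promoter entry in the table used. Promoters with a start over 100 bases from the GENCODE start, with an exon in the 250 bases, or with no site over them and within 1 kb were left out. These last 3 criteria were chosen after seeing the data. Alternatives were other distances from interval edges, domain and run lengths, joining of runs, gene sets, placement and choice of sites, repeats left out, and equal weight of chromosomes. Some listed genes are counted in their lists and are not reported here by name.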

Additional observations from a re-analysis of the deposited data

How the results depend on the processing

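Of 46 alternative values over 8 results, 35 stayed within the tolerance and 11 did not. The tolerance was a factor of 1.5 for counts, the 95% counting interval for shares and densities, and 1 SD over chromosomes (0.655 percentage points) for GC content. At 30 kb or more from any excluded region, runs fell to 1057, the share in domains that overlapped a young one was 48.2%, and start sites were 13.7 per Mb. That share was 55.7% at 30 kb or more inside the old domain and 54.5% as a mean over chromosomes. All annotated genes gave 29.5 start sites per Mb, and bases outside repeats 46.5% GC. Any overlap gave 4.37 wild-type and 5.18 mutant Foxa2 sites per Mb, and sites of 1 genotype only 2.54 and 3.33. The cause was not tested, beyond the fewer windows, fewer sites or other genes that each alternative counts by construction. No paired analysis was possible because replicates were merged before calling and no result comes from a test. Leaving out a replicate or using a stricter score was likewise not run. The depth behind each call is not in the lists. Per the study, old lamin B1 libraries had fewer aligned reads than young ones, old H3K9me3 libraries had more, and mutant Foxa2 reads were downsampled to the wild-type total before calling. The part of depth in the calls was not tested.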

Other observations

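The gained windows also held genes that encode no protein. The start site of 797 of 5209 lincRNA genes (15.3%), 602 of 2913 antisense genes (20.7%) and 315 of 2054 miRNA genes (15.3%) lay in them, beside 19.3% of protein-coding genes. Processed pseudogenes were lower, at 946 of 8924 (10.6%). A mature RefSeq sequence was matched to 171 of the 315 miRNA genes, with 287 mature arms, and 13 seeds (bases 2 to 8) were shared by at least 2 of these genes. The let-7 seed, known for holding back growth genes, was shared by 3 genes in the windows of 11 that carry it. The seed of miR-132 and miR-212 was carried by 2 genes of 2.

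The mature sequences below were chosen after their positions were seen, to show shared seeds and miRNA clusters inside 1 run, with the seed in capitals (RefSeq, GRCm38.p6, all on the plus strand). The genes of let-7b (chr15:85707325-85707346) and let-7c (chr15:85706616-85706637) lay together in a run of 90 kb, and that of let-7g (chr9:106178846-106178867) in a run of 250 kb. The genes of miR-132 (chr11:75173723-75173744), miR-212 (chr11:75173443-75173464) and miR-22 (chr11:75463772-75463793) shared a run of 890 kb. Those of miR-194 (chr1:185313325-185313346) and miR-215 (chr1:185313610-185313630) shared a run of 330 kb, and those of miR-27b (chr13:63300760-63300780) and miR-24 (chr13:63301251-63301272) a run of 530 kb.
let-7b-5p: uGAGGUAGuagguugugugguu
let-7c-5p: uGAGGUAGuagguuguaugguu
let-7g-5p: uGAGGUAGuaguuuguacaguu
miR-132-3p: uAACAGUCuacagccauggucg
miR-212-3p: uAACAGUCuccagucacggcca
miR-22-3p: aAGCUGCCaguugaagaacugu
miR-194-5p: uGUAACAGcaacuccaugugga
miR-215-5p: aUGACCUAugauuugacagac
miR-27b-3p: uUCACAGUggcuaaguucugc
miR-24-3p: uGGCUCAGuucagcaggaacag

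The gene of miR-122, the most abundant miRNA of hepatocytes, lay in a run of 380 kb, with a wild-type Foxa2 site 1469 bp and a mutant site 980 bp from the start of Mir122, both in its window. Positions of miRNA genes were compared here, and their levels were not measured.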
